A study of Mus musculus with 16 samples.

Results

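The complement system is represented here by 9 genes, C1qa, C1qb, C1qc, C1ra, C1s1, C4b, C3, C3ar1 and Serping1. These are classical pathway components and their inhibitor gene Serping1, the component C3 shared by all pathways, and the C3a receptor gene C3ar1. They were chosen by gene name, with earlier results of these data known, and were followed across all 16 bulk retina libraries of the study. There were 54532 genes listed for uninjected retinas and 48440 for injected ones. The injected retinas were taken from wildtype C57BL6/J mice at 18 months of age. They received 0.36 nmol of the polyunsaturated fatty acid 24:5 in the vitreous of 1 eye (n = 3 libraries) and vehicle in the contralateral eye (n = 3), and were collected after 5 days. The uninjected retinas were taken from 18-month wildtype animals (n = 4), 12-month animals carrying a point mutation in Elovl2, which encodes a fatty acid elongase (n = 3), and 12-month wildtype animals (n = 3). Its substitution appears as C234W in the design text and as C34W in the genotype label. The labels do not say which injected retinas came from the same animal, nor whether libraries are separate animals, and the p-values given here measure only the spread between libraries, which may be technical.

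Complement is a protein cascade that marks cells and debris for removal. In its classical pathway, C1q binds a target, the proteases C1r and C1s cleave C4 and C2, and the resulting convertase cleaves C3. C3 fragments coat the target, while the released peptide C3a acts through its receptor, and C1 inhibitor, the product of Serping1, blocks C1r and C1s. In retina and brain, C1q is made mainly by microglia, and complement fragments take part in the removal of synapses and photoreceptor debris by phagocytes.

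The 9 genes lie on 4 chromosomes of the mm10 build. C1qa (chr4:136895917-136898803), C1qc (chr4:136889804-136893065) and C1qb (chr4:136880129-136886187) are neighbours on the minus strand of chromosome 4. C1ra (chr6:124512405-124523443), C1s1 (chr6:124530345-124542359) and C3ar1 (chr6:122847138-122856161) are on chromosome 6, and C4b (chr17:34728380-34743882) and C3 (chr17:57203970-57228136) on chromosome 17. Serping1 (chr2:84765387-84775444) is on chromosome 2. All are protein-coding, and all but C1ra are on the minus strand. C1s1 overlaps the antisense gene Gm16567, and no source used here gives the strand setting of the counting.

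Some of these genes have close copies, which bears on how their reads can be assigned. Of the 100-base stretches in annotated transcripts, 35.9% in C1ra also occur in other genes, chiefly C1rb, 15.2% in C4b occur in C4a, and 6.87% in C1s1 occur in C1s2. The levels of C1ra, C1s1 and C4b are uncertain to that extent. No such stretch was shared for C1qa, C1qb, C1qc, C3, C3ar1 or Serping1.

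The 250 bases before the annotated start of 4 of these genes are printed 5′ to 3′ because their transcripts were lower in every 24:5 library than in every vehicle library, as described for all 9 genes further on. They were taken from RefSeq promoters on GRCm38.p6, where 6 of the 9 genes matched (C1qb, C1qc, C1ra, C1s1, C3 and C3ar1). The regions, all on the minus strand, are chr4:136886201-136886450 for C1qb, chr4:136892915-136893164 for C1qc, chr17:57228137-57228386 for C3 and chr6:122856158-122856407 for C3ar1. The RefSeq starts of C1qc and C3ar1 lie inside the gene intervals given above, so parts of their windows do too. Capitals mark the matches described after the sequences.
C1qb: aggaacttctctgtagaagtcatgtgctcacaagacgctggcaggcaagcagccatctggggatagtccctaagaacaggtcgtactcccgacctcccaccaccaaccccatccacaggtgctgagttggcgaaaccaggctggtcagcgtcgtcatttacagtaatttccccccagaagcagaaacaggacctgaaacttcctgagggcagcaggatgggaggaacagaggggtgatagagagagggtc
C1qc: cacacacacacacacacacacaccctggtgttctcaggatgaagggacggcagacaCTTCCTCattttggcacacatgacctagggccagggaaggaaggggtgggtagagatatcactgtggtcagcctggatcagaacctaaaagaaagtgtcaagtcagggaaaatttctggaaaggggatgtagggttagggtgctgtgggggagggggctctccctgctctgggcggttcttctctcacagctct
C3: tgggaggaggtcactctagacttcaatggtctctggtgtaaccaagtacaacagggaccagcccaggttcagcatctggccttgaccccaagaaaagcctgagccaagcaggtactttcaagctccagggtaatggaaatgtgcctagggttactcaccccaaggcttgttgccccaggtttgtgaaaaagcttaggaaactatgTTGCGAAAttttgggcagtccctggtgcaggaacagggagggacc
C3ar1: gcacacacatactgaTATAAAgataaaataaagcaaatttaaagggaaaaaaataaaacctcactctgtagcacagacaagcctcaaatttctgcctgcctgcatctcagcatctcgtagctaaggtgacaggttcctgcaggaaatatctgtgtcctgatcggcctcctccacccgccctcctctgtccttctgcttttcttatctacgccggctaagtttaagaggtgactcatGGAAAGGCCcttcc

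These windows were searched on both strands for 6 motifs, 5 of factors active in myeloid cells or inflammation and the TATA box. The TATA box was searched as TATAAA. The STAT motif was searched as TTCNNNGAA, the interferon-stimulated response element as GAAANNGAA, the C/EBP motif as TTGCNNAA and the NF-κB motif as GGNNTTTCC. PU.1, a factor of myeloid cells, was searched as GAGGAAG. C3 held a C/EBP match, TTGCGAAA, from 45 to 38 bases before the start, and 9.56% of 32851 mouse promoter windows of the same length hold that motif. C1qc held a PU.1 match on the opposite strand, a motif found in 10.6% of windows. C3ar1 held a TATAAA match from 235 to 230 bases before the start and an NF-κB match on the opposite strand, GGAAAGGCC, from 14 to 6 bases before it. TATAAA is found in 12.4% of windows and the NF-κB motif in 4.93%. C1qb held none of the 6 motifs, nor did C1ra. The C1ra window, chr6:124512371-124512620, lies mostly inside the gene interval given above. C1s1 held a C/EBP match on the opposite strand in its window chr6:124542360-124542609. That match was absent from its window chr6:124542322-124542571, part of which lies inside its gene interval. STAT and interferon-element matches, found in 7.02% and 7.13% of windows, occurred in none of the 6 genes. No match overlapped another, and a match is a description of letters, not of binding.

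Sequencing depth was 22066668 to 25609242 counts per injected library and 12810558 to 30519417 reads, recovered from the FPKM values, per uninjected library. In the injected libraries, 3 structural RNAs held 8.54% to 13.4% of the counts, and 37 mitochondrial genes were listed at 0 counts. The first principal component of the injected libraries (46.1% of the variance) put vehicle replicates 1 and 2 with 24:5 replicate 1, and vehicle replicate 3 with 24:5 replicates 2 and 3, so it did not separate the treatments. The 8 rod photoreceptor markers, which define retina, summed to 42200 to 44800 CPM with 24:5 and 35400 to 41800 CPM with vehicle, and to 10200 to 11600 FPKM in uninjected libraries. Levels of injected retinas are CPM, counts scaled to library size with TMM factors, and those of uninjected retinas are FPKM, a value per gene length and library size.

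The first comparison asked how transcripts differ between 24:5-injected and vehicle-injected retinas of aged mice. Every one of the 9 complement genes was lower in all 3 libraries with 24:5 than in all 3 with vehicle. Mean levels with vehicle were 2.12 to 6.13 times those with 24:5, with C3 at the top of that range and C1qb and C1s1 at the bottom. None of the 9 passed the threshold of 0.05 for the adjusted p of edgeR's quasi-likelihood test, by which 0.0115% of the 17466 genes tested (2 genes) were called.

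C1qa encodes the A chain of C1q, the recognition unit that starts the classical pathway. It was at 23.7, 17.7 and 15.6 CPM in 24:5 replicates 1, 2 and 3, and at 53.6, 42.3 and 31.1 CPM in vehicle replicates 1, 2 and 3. The groups did not overlap, and replicate 1 was the highest library in both. C1qa averaged 19.0 ± 4.20 CPM in 24:5 retinas and 42.4 ± 11.3 CPM in vehicle retinas (SD, n = 3 each). Its log2 fold change was -1.16 (SE 0.235, edgeR adjusted p = 0.264).

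C1qb, the B chain, was at 23.3, 20.9 and 14.7 CPM with 24:5, and at 51.4, 44.2 and 28.9 CPM with vehicle. Its groups did not overlap either; vehicle replicate 3 came nearest to the 24:5 libraries. C1qb had a log2 fold change of -1.08 (SE 0.256, edgeR adjusted p = 0.359). C1qc, the C chain, was at 17.2, 13.5 and 10.1 CPM with 24:5, and at 36.3, 29.2 and 22.6 CPM with vehicle, again without overlap. Its log2 fold change was -1.11 (SE 0.239, edgeR adjusted p = 0.278).

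The chains kept nearly the same proportions to each other in every library. Per kilobase of transcript, C1qa made up 39.5% to 44.5% of the summed C1q level in the 6 injected libraries, C1qb 39.0% to 44.4% and C1qc 15.5% to 17.2%. In the 10 uninjected libraries the shares were 37.5% to 47.0% for C1qa, 37.8% to 44.9% for C1qb and 13.1% to 18.6% for C1qc. The ranges of the treatments overlapped for each chain, with C1qc at 16.2% ± 0.651 in 24:5 libraries and 16.3% ± 0.794 in vehicle libraries (SD, n = 3 each).

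C1ra and C1s1 encode the proteases C1r and C1s, which C1q activates. C1ra was at 2.07, 2.75 and 2.33 CPM with 24:5, and at 12.0, 8.24 and 4.35 CPM with vehicle. The vehicle libraries spread widely (8.21 ± 3.84 CPM, SD, n = 3), and the 24:5 libraries lay close together (2.38 ± 0.344 CPM, SD, n = 3). The log2 fold change of C1ra was -1.78 (SE 0.362, edgeR adjusted p = 0.250).

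C1s1 was at 3.10, 2.54 and 3.36 CPM with 24:5, and at 6.24, 6.65 and 6.17 CPM with vehicle. It averaged 3.0 ± 0.419 CPM in 24:5 retinas and 6.35 ± 0.261 CPM in vehicle retinas (SD, n = 3 each), where it was the most even of the 9 genes. Its log2 fold change was -1.08 (SE 0.179, edgeR adjusted p = 0.182).

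C4b encodes complement C4, which activated C1s cleaves. It was at 62.2, 63.4 and 50.2 CPM with 24:5, and at 172, 144 and 119 CPM with vehicle. All vehicle libraries lay well above all 24:5 libraries, with means of 58.6 ± 7.30 CPM in 24:5 retinas and 145 ± 26.5 CPM in vehicle retinas (SD, n = 3 each). C4b had the smallest p of the 9 genes and the fifth smallest of all genes tested, with a log2 fold change of -1.31 (SE 0.151, edgeR adjusted p = 0.144). Its copy C4a averaged 3.15 ± 0.409 CPM in 24:5 retinas and 3.20 ± 1.02 CPM in vehicle retinas (SD, n = 3 each), with a log2 fold change of -0.02 (SE 0.266).

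C3 encodes the component on which all complement pathways converge. It was at 15.8, 21.2 and 14.5 CPM in 24:5 replicates 1, 2 and 3, and at 171, 106 and 38.0 CPM in vehicle replicates 1, 2 and 3. The vehicle libraries thus differed from each other more than for any other of the 9 genes, while the 24:5 libraries were alike. Means were 17.2 ± 3.57 CPM in 24:5 retinas and 105 ± 66.6 CPM in vehicle retinas (SD, n = 3 each), and the log2 fold change was -2.62 (SE 0.593, edgeR adjusted p = 0.420). C3 had both the lowest fold change and the highest adjusted p of the 9 genes.

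C3ar1 encodes the receptor for C3a, carried by microglia and other myeloid cells. It was at 4.22, 5.08 and 3.81 CPM with 24:5, and at 18.7, 17.2 and 7.41 CPM with vehicle. As for C3, vehicle replicate 3 was nearest to the 24:5 libraries without reaching them. Its log2 fold change was -1.72 (SE 0.349, edgeR adjusted p = 0.264).

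Serping1 encodes C1 inhibitor, a serpin that inactivates C1r and C1s and so restrains the classical pathway. It was at 16.8, 25.9 and 19.5 CPM with 24:5, and at 63.6, 45.3 and 44.6 CPM with vehicle. Again all vehicle libraries were above all 24:5 libraries, so this inhibitor lay in the same direction as the components it restrains. Means were 20.7 ± 4.66 CPM in 24:5 retinas and 51.2 ± 10.8 CPM in vehicle retinas (SD, n = 3 each). Its log2 fold change was -1.30 (SE 0.203, edgeR adjusted p = 0.192).

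**Figure D1:**
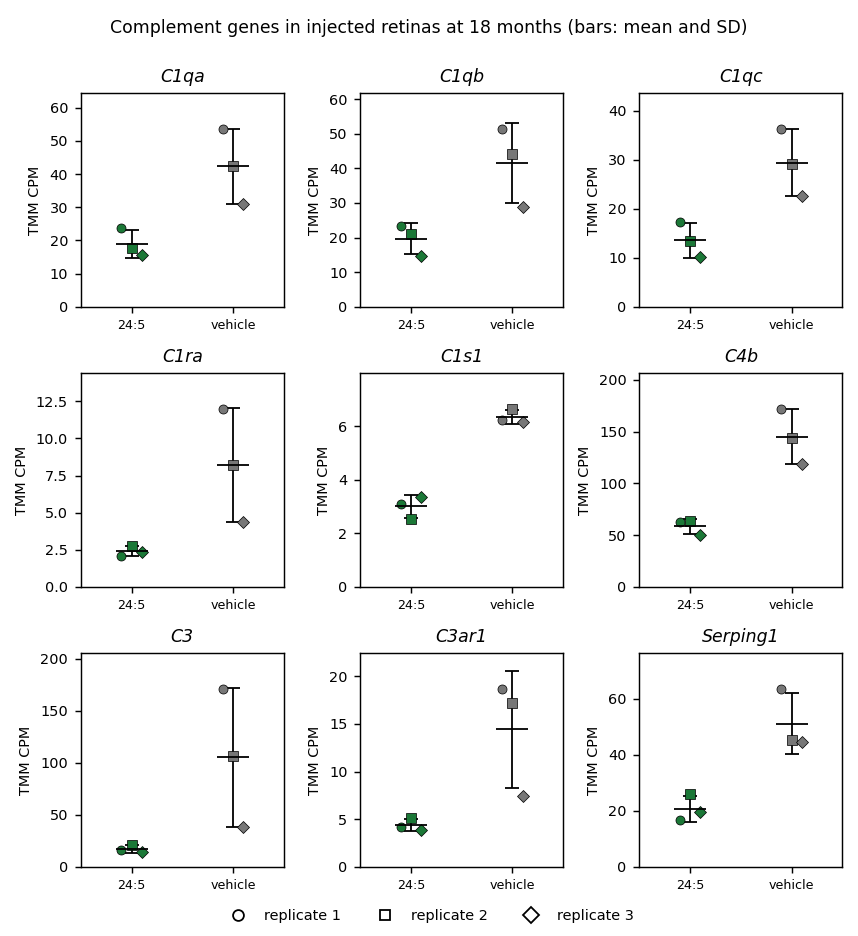
TMM-scaled CPM (linear axes from 0) of the 9 complement genes in each injected library, 24:5 on the left and vehicle on the right of each panel; marker shape gives the replicate number and the bars give mean and SD. Every vehicle library lies above every 24:5 library in all 9 panels, and the vehicle libraries of C3 spread from 38.0 to 171 CPM.

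Across the 9 genes, 9 of 9 had groups without overlap and lower with 24:5, against 6.77% of all genes tested, and 0 of 9 were higher without overlap, against 4.82%. All 9 of 9 had a fold change below 0, against 49.2% of genes, and 9 of 9 had an unadjusted edgeR p under 0.05 in that direction, against 5.16%. Their median log2 fold change was -1.30, against 0.003 over all genes tested. The 9 genes were chosen with earlier results of these data known, so these shares describe the genes and do not test them. The number called depended on the test. DESeq2 called 9 of 9 lower, where it called 1.13% of 22130 genes. Its adjusted p ran from 4.22e-13 for C4b to 0.00274 for C3, with fold changes within 0.01 of those of edgeR. Limma-voom with library quality weights called 1 of 9, where it called 0.063% of genes. That gene was C4b (log2 -1.34, SE 0.134, adjusted p = 0.0290).

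Leaving out 1 library at a time in edgeR kept all 9 fold changes below 0. Without vehicle replicate 3, 4 of the 9 genes were called lower (C1ra, C4b, C3 and C3ar1), where 0.584% of genes were called. Leaving out any other injected library gave 0 of 9. The C3 fold change ranged from -3.01 to -2.08 on the log2 scale over these 6 fits.

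The order of levels per kilobase of transcript can be read within each group. In 24:5 retinas it ran from C1qa (18.3 ± 4.04 CPM per kilobase) and C1qb (18.0 ± 4.10), through C4b (10.3 ± 1.28), Serping1 (8.92 ± 2.01) and C1qc (7.04 ± 1.85), to C3 (3.34 ± 0.693) (SD, n = 3). C3ar1 (1.01 ± 0.151), C1s1 (0.958 ± 0.134) and C1ra (0.800 ± 0.115) were lowest there. In vehicle retinas it ran from C1qa (40.7 ± 10.8) and C1qb (38.2 ± 10.5), through C4b (25.5 ± 4.65), Serping1 (22 ± 4.63), C3 (20.4 ± 12.9) and C1qc (15.2 ± 3.55), to C3ar1 (3.35 ± 1.42), C1ra (2.75 ± 1.29) and C1s1 (2.03 ± 0.0835) CPM per kilobase (SD, n = 3). C1qa and C1qb did not differ beyond their spread in either group, nor did C4b and Serping1. C3 lay below C1qc in every 24:5 library, and in vehicle libraries the ranges of these genes overlapped.

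Of 46 further complement genes listed by role, 24 had enough counts for a test, and 0 passed in edgeR. Of these 24, 17 had a fold change below 0 and 7 above it, where 49.2% of all genes tested were below 0. An unadjusted edgeR p under 0.05 was found for 6, all lower with 24:5, against 5.16% of genes. Groups without overlap were found for 5, all lower, against 6.77% of genes. The median log2 fold change of the 24 was -0.21, against 0.003 for all genes tested and -1.30 for the 9 genes. The 9 were chosen with earlier results of these data known, so part of that contrast may follow from the choice.

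The 2 lowest fold changes among these 24 were those of phagocyte complement receptor genes. Itgax, the alpha chain of complement receptor CR4 (CD11c), was at 1.31, 1.06 and 0.778 CPM with 24:5, and at 6.24, 4.27 and 2.48 CPM with vehicle (log2 -2.04, SE 0.380, edgeR adjusted p = 0.207). Itgb2, the beta chain that Itgax and Itgam share, was at 6.2, 5.12 and 4.01 CPM with 24:5, and at 14.4, 13.8 and 10 CPM with vehicle (log2 -1.32, SE 0.210, edgeR adjusted p = 0.171). Neither gene's groups overlapped. Itgam, the alpha chain of complement receptor CR3, had a log2 fold change of -0.99 (SE 0.267), and the C5a receptor genes C5ar2 and C5ar1 had -0.87 (SE 0.346) and -0.78 (SE 0.514). With C3ar1, all 6 receptor genes tested were below 0.

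Among the other 13 regulators tested, 8 were below 0. Clu, which encodes clusterin, an inhibitor of the terminal pathway and an abundant retinal transcript, was at 805, 962 and 918 CPM with 24:5, and at 1290, 1100 and 1520 CPM with vehicle, without overlap (log2 -0.54, SE 0.124, edgeR adjusted p = 0.278). Cfi, the protease that degrades C3b and C4b, had a log2 fold change of -1.03 (SE 0.464), and its groups overlapped. Cr1l, which encodes the rodent regulator Crry, had -0.21 (SE 0.160).

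The lectin, alternative and terminal pathways were thinly represented. Of 9 lectin pathway genes 2 could be tested, the protease gene Masp2 (log2 0.20, SE 0.560) and the collectin gene Colec12 (log2 -1.09, SE 0.412), which have opposite signs. Properdin (Cfp), which stabilises the alternative convertase, had a log2 fold change of -0.38 (SE 0.229), and the terminal component gene C8g had 0.00 (SE 0.360). C2, whose product joins C4b in the convertase, had 0.27. No read of Cfd, C9, Fcnb or Cd55b was counted in any injected library.

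**Figure D2:**
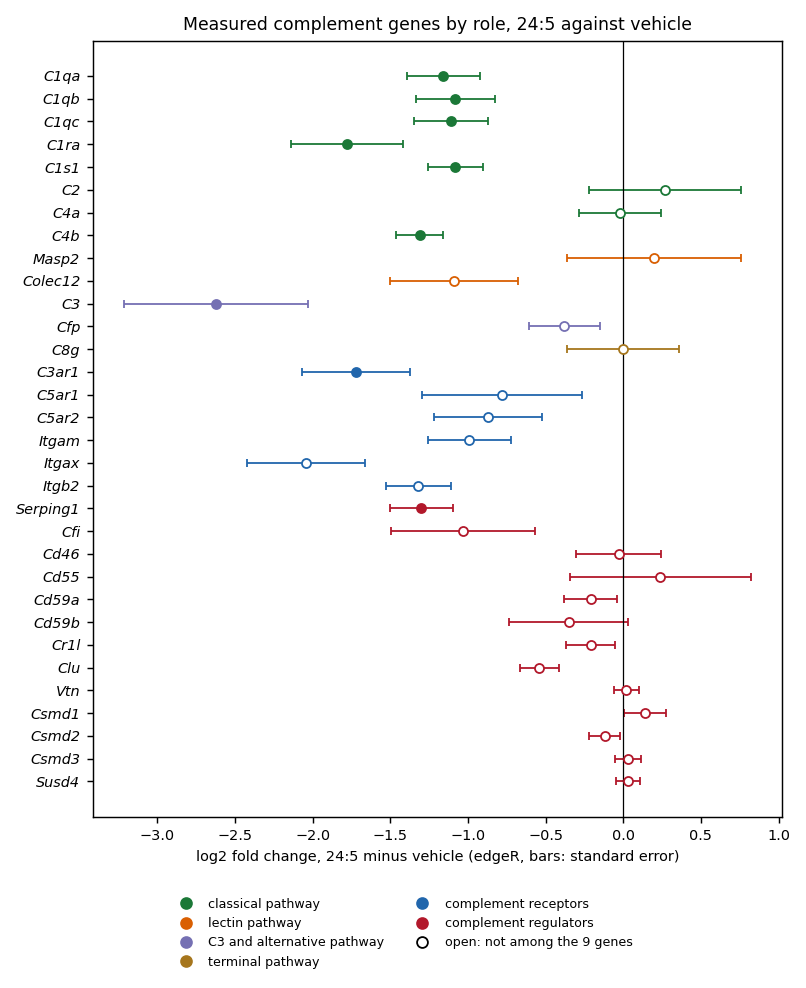
Log2 fold change of 24:5 over vehicle (edgeR, bars give the standard error) for the complement genes with enough counts for a test, ordered and coloured by role; filled points are the 9 genes and open points 23 of the 24 others. The filled points lie between -2.62 for C3 and -1.08 for C1qb and C1s1, and the other regulators lie near 0, apart from Cfi at -1.03 and Clu at -0.54.

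The summed levels of myeloid cell markers were also lower in the 24:5 libraries. In bulk tissue, fewer cells of a type and less RNA per cell cannot be told apart. The summed level of 12 resident microglia markers was 202, 148 and 107 CPM in 24:5 replicates 1, 2 and 3, and 340, 326 and 213 CPM in vehicle replicates 1, 2 and 3, without overlap. All 12 had a fold change below 0, with a median log2 of -0.92, and 0 passed in edgeR (7 with an unadjusted p under 0.05). Among the defining microglia genes, Tmem119 had a log2 fold change of -0.52 (SE 0.219) and P2ry12 -0.50 (SE 0.489).

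Monocyte and macrophage markers differed by more. The 10 genes summed to 66.5, 59.0 and 22.9 CPM with 24:5, and to 466, 331 and 142 CPM with vehicle, again without overlap. All 8 that could be tested were below 0 (median log2 -2.58), all 8 with an unadjusted p under 0.05 and 0 called. Ccr2, the chemokine receptor of blood monocytes, was at 2.47, 3.47 and 0.614 CPM with 24:5, and at 19.8, 19.6 and 9.54 CPM with vehicle (log2 -2.90, SE 0.601, edgeR adjusted p = 0.300). Neutrophil markers summed to 2.33 to 2.88 CPM with 24:5 and 3.73 to 7.45 CPM with vehicle. Ly6g was at 0 in all 24:5 libraries and at 0 to 0.133 CPM with vehicle (median 0). Lymphocyte markers summed to 0.0423 to 0.756 CPM with 24:5 and 0.174 to 0.666 CPM with vehicle.

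The reactive gliosis and interferon lists did not follow the order of libraries seen for myeloid markers, while the lens list did so in part. Reactive gliosis markers summed to 322, 800 and 613 CPM with 24:5, and to 805, 722 and 885 CPM with vehicle, so the groups overlapped. Interferon response genes summed to 197, 641 and 463 CPM with 24:5, and to 429, 407 and 880 CPM with vehicle, and both genes called by edgeR in the comparison, Ifit1 and Rnf213, were members of this list (named after their values were seen). Most of the sum of the lens list came from crystallin genes, so it is not by itself a measure of lens tissue. This list summed to 650, 124 and 54.5 CPM with 24:5, and to 1640, 1780 and 124 CPM with vehicle. Vehicle replicate 3 thus had both the lowest lens sum and the lowest C3 of the vehicle libraries. The part of the myeloid, lens and interferon lists in the complement result was not tested.

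Relative to the summed resident microglia markers, the C1q genes had lower means with 24:5, and the treatments overlapped for each chain. C1qa stood at 12.7% ± 1.54 of that sum with 24:5 and 14.5% ± 1.40 with vehicle, C1qb at 13.1% ± 1.38 with 24:5 and 14.1% ± 0.866 with vehicle, and C1qc at 9.0% ± 0.429 with 24:5 and 10.1% ± 0.983 with vehicle (SD, n = 3 each). Two-sided exact permutation tests gave p = 0.2 for C1qa, p = 0.6 for C1qb and p = 0.3 for C1qc, where 3 libraries against 3 cannot go below 0.1. C4b stood at 40.1% ± 8.27 with 24:5 and 50.3% ± 5.90 with vehicle, and Serping1 at 14.6% ± 5.48 with 24:5 and 17.9% ± 3.62 with vehicle, both with overlap between the treatments. C3 stood at 7.84%, 14.3% and 13.5% in 24:5 replicates 1, 2 and 3, and at 50.3%, 32.5% and 17.9% in vehicle replicates 1, 2 and 3. It was the only one of the 9 genes whose ratios did not overlap (two-sided exact permutation p = 0.1, n = 3 each, the smallest this design allows). Chance alone separates a gene's ratios with that probability, and 9 genes were looked at, so C3 is not set apart by this count. Bulk libraries do not tell which cells made the C4b, C3 and Serping1 transcripts, so their ratios need not follow microglia. The share of all genes with separate ratios was not computed. The list itself may differ between treatments, and a p that misses the threshold does not show that the ratios were equal.

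**Figure D3:**
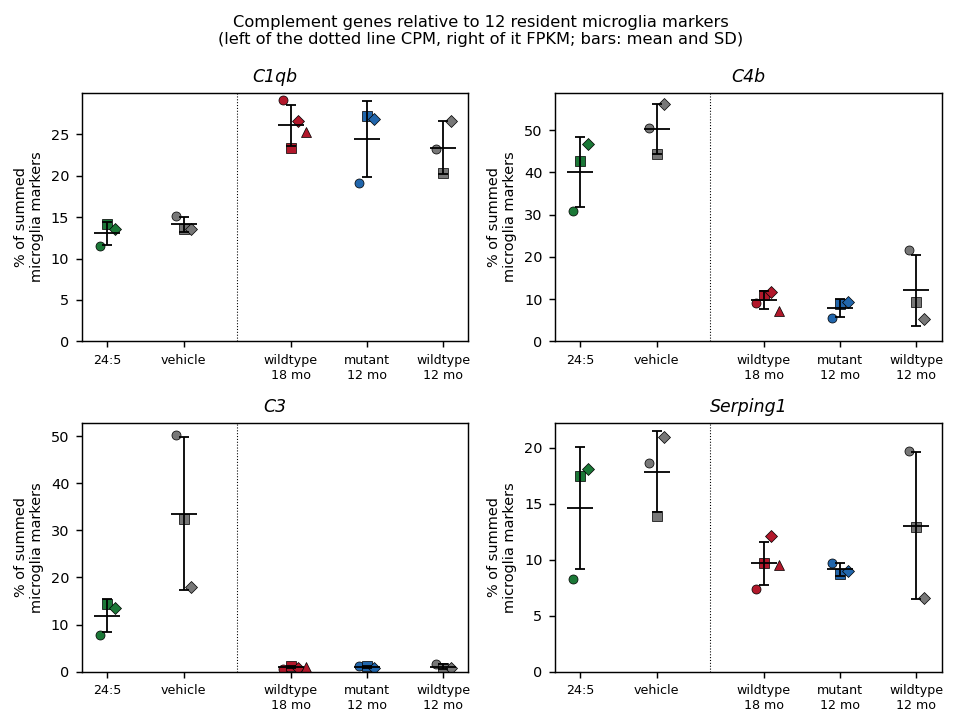
Level of C1qb, C4b, C3 and Serping1 as a percentage of the summed level of 12 resident microglia markers in each library, for injected retinas in CPM (left of the dotted line) and uninjected retinas in FPKM (right of it); bars give mean and SD. C3 lies at 7.84% to 14.3% with 24:5 and 17.9% to 50.3% with vehicle, while C1qb overlaps between the treatments. Percentages on the left and right are in different units and are not compared.

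By the pattern over the 6 injected libraries, and leaving the 9 genes themselves out of the ranking, C1qb was most like Apobec3, Unc93b1 and Tmem176a, each with a root mean square difference of 0.07 in centred log2 CPM. The other chains differed from C1qb by 0.09 (C1qc) and 0.12 (C1qa). C4b was most like Cd93 (0.08), Sp100 (0.11) and Itgb2 (0.12). Serping1 was most like Tlr2 (0.13), Lyl1 (0.17) and C1rl (0.17). C3 had no close match, with Tlr1 (0.29), Gpr65 (0.30) and Vcan (0.30) nearest. These libraries share the treatment split, so the likeness is a description over 6 points.

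The second comparison set 18-month wildtype retinas against 12-month ones. The complement genes showed no difference between the ages beyond the spread of the libraries, and 0 of 9 had groups without overlap, where 2.22% of the genes tested by limma did so at a lower and 1.95% at a higher level at 18 months. Of the 9, 5 reached a mean of 1 FPKM and were tested with limma (C1qa, C1qb, C1qc, C4b and Serping1). None was called, where 0.0% of 13786 genes were called by limma and 503 had an unadjusted p under 0.05, none of them a complement gene listed here. On reads recovered from the FPKM values, where all 9 could be tested, edgeR called 0 of 9 and 1 gene in all, and DESeq2 0 of 9 and 10 genes in all.

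C1qb was at 12.9, 8.78, 9.34 and 11.4 FPKM in wildtype retinas at 18 months, and at 11.7, 5.97 and 9.91 FPKM at 12 months. The ranges overlapped over most of their width, with a log2 fold change of 0.22 (SE 0.293, limma adjusted p = 1). C1qa averaged 10.5 ± 2.53 FPKM at 18 months (SD, n = 4) and 9.72 ± 3.15 FPKM at 12 months (SD, n = 3), and C1qc 4.15 ± 1.2 FPKM at 18 months and 3.54 ± 1.82 FPKM at 12 months.

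C4b was at 4.08, 4.15, 4.14 and 3.31 FPKM at 18 months, and at 10.9, 2.76 and 1.95 FPKM at 12 months. Its 12-month libraries lay on both sides of the 18-month ones, with a log2 fold change of -0.05 (SE 0.435, limma adjusted p = 1). Serping1 was at 3.27, 3.66, 4.24 and 4.36 FPKM at 18 months, and at 9.90, 3.80 and 2.45 FPKM at 12 months, with a log2 fold change of -0.22 (SE 0.321, limma adjusted p = 1). For both genes wildtype 12-month replicate 1 was the highest of the 10 uninjected libraries.

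C3 was low without injection. It was at 0.277, 0.421, 0.303 and 0.452 FPKM at 18 months, from 21 to 39 recovered reads, and at 0.837, 0.257 and 0.266 FPKM at 12 months, from 26 to 128 reads. The same 12-month library, replicate 1, was the highest, and the edgeR log2 fold change on recovered reads was -0.34 (SE 0.434, adjusted p = 1). C1ra lay at 0.400 to 0.475 FPKM at 18 months and 0.148 to 0.812 FPKM at 12 months, C1s1 at 0.238 to 0.533 FPKM at 18 months and 0.226 to 0.806 FPKM at 12 months. C3ar1 lay at 0.138 to 0.221 FPKM at 18 months and 0.0308 to 0.305 FPKM at 12 months, from as few as 3 reads.

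Wildtype 12-month replicate 1 had the highest level of 6 of the 9 genes among the 10 uninjected libraries (C1ra, C1s1, C4b, C3, C3ar1 and Serping1). Its reactive gliosis markers, at a sum of 70.7 FPKM, and its monocyte and macrophage markers, at 19.2 FPKM, were also the highest of the 10. Without it, edgeR on recovered reads gave age fold changes above 0 for all 9 genes, an alternative chosen after these values were seen. C1ra then had a log2 fold change of 1.31 (SE 0.349, unadjusted p = 0.00341), C4b 0.75 (SE 0.349) and Serping1 0.33 (SE 0.231), all with an adjusted p of 1. The directions of C4b and Serping1 with age therefore rest on that library, and no direction is drawn for them.

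The third comparison set Elovl2 mutant retinas against wildtype retinas, both at 12 months. It uses the same wildtype 12-month libraries as the age comparison, and again none of the 9 genes differed beyond the spread of the libraries. Limma called 0 of the 5 genes tested and 0.0% of 13786 genes, with 302 genes at an unadjusted p under 0.05, none of them a complement gene listed here. On recovered reads, edgeR and DESeq2 each called 0 of 9 and 0 genes in all. The groups of all 9 overlapped, where 2.92% of genes were without overlap and lower and 3.05% higher in mutants.

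C1qb was at 5.98, 15.2 and 12.9 FPKM in mutants, against 11.7, 5.97 and 9.91 FPKM in wildtype retinas, with a log2 fold change of 0.23 (SE 0.313, limma adjusted p = 1). C1qa was at 6.72, 18.9 and 12.8 FPKM in mutants, against 12.3, 6.2 and 10.7 FPKM in wildtype retinas. Mutant replicate 2 had the highest level of each C1q chain among the 10 libraries, together with the highest resident microglia sum, 55.9 FPKM, while mutant replicate 1 was near the lowest wildtype library.

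C4b was at 1.72, 4.96 and 4.52 FPKM in mutants, against 10.9, 2.76 and 1.95 FPKM in wildtype retinas, with a log2 fold change of -0.19 (SE 0.465, limma adjusted p = 1). Serping1 was at 3.06, 4.85 and 4.31 FPKM in mutants, against 9.90, 3.80 and 2.45 FPKM in wildtype retinas (log2 -0.17, SE 0.343, limma adjusted p = 1). C3 was at 0.368, 0.666 and 0.345 FPKM in mutants, against 0.837, 0.257 and 0.266 FPKM in wildtype retinas. In each of these genes the highest library of all was wildtype replicate 1, and the other two wildtype libraries lay within or below the mutant range. Without wildtype replicate 1, edgeR on recovered reads gave log2 fold changes of 0.85 for C3 (SE 0.367), 0.70 for C4b (SE 0.362) and 1.22 for C1ra (SE 0.359), all with an adjusted p of 1.

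**Figure D4:**
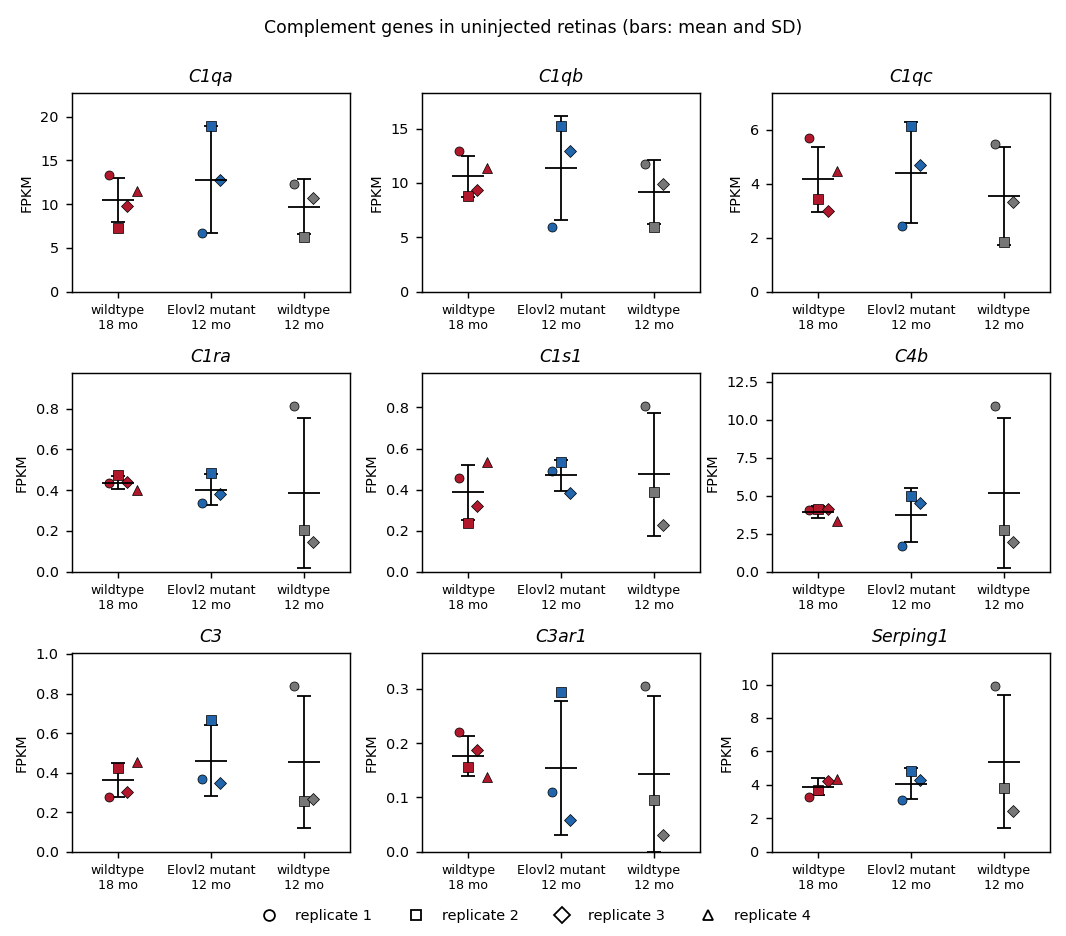
FPKM (linear axes from 0) of the 9 complement genes in each uninjected library, for wildtype at 18 months, Elovl2 mutant at 12 months and wildtype at 12 months; marker shape gives the replicate number and the bars give mean and SD. The groups overlap in all 9 panels, and the circle of wildtype 12-month replicate 1 is the highest library for C4b (10.9 FPKM) and Serping1 (9.90 FPKM).

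Set directly against each other, wildtype retinas at 18 months and mutant retinas at 12 months also gave 0 of 5 calls by limma, where 0.0% of genes were called, with 295 at an unadjusted p under 0.05. Among these was 1 listed complement gene, the regulator Cd59a, which inhibits the terminal complex (log2 -0.44, SE 0.158, unadjusted p = 0.0201, limma adjusted p = 1), with overlap between the groups. All 9 overlapped, where 2.37% of genes did not and were lower and 2.1% higher in 18-month wildtype retinas. The log2 fold changes of 18-month wildtype over mutant retinas lay between -0.19 for C1qa (SE 0.323) and 0.13 for C4b (SE 0.435). C4b averaged 3.92 ± 0.409 FPKM in 18-month wildtype retinas (SD, n = 4) and 3.73 ± 1.76 FPKM in mutants (SD, n = 3). On recovered reads edgeR called 0 of 9 and 0 genes in all, and DESeq2 0 of 9 and 10 genes.

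Of the 46 further complement genes, 8 reached the level for a test in the uninjected retinas, and 0 passed limma in any of the 3 comparisons. Their median log2 fold change was -0.07 for age, 0.00 for genotype and -0.03 for 18-month wildtype over mutant retinas. Clu was at 179 ± 20.7 FPKM in wildtype retinas at 18 months (SD, n = 4), 178 ± 26.3 FPKM in mutants and 191 ± 39.4 FPKM in wildtype retinas at 12 months (SD, n = 3 each). Cfp was at 7.29 ± 0.235 FPKM in wildtype retinas at 18 months (SD, n = 4), 6.39 ± 2.27 FPKM in mutants and 8.52 ± 3 FPKM in wildtype retinas at 12 months (SD, n = 3 each). Resident microglia markers summed to 35.2 to 45.5 FPKM at 18 months, 31.3 to 55.9 FPKM in mutants and 29.4 to 50.3 FPKM in wildtype retinas at 12 months.

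The order of levels in uninjected wildtype retinas at 18 months was C1qb (10.6 ± 1.92 FPKM) and C1qa (10.5 ± 2.53 FPKM), then C1qc (4.15 ± 1.2 FPKM), C4b (3.92 ± 0.409 FPKM) and Serping1 (3.88 ± 0.508 FPKM) (SD, n = 4). The remaining genes were below 1 FPKM, with C1ra at 0.437 ± 0.0310, C1s1 at 0.387 ± 0.133, C3 at 0.363 ± 0.0859 and C3ar1 at 0.176 ± 0.0364 FPKM (SD, n = 4). C1qb and C1qa did not differ beyond their spread, nor did C1qc, C4b and Serping1 among themselves.

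The place of each gene within its own library can be set side by side across the tables, which were normalised separately, so that no test was made. Among 21721 protein-coding genes ranked per length, C3 lay at percentiles 56.6 to 62.5 in 24:5 retinas, 73.4 to 95 in vehicle retinas and 37.8 to 40.9 in uninjected wildtype retinas at 18 months. C4b lay at 76.7 to 81.5 with 24:5, 90.7 to 94.4 with vehicle and 59.1 to 62.5 without injection. C1qa lay at 86.2 to 91.7 with 24:5, 94.1 to 97.2 with vehicle and 72.5 to 83.9 without injection. For each of these 3 genes the 24:5 range lay between the other ranges, and the injection and the table cannot be told apart here.

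Over the 10 uninjected libraries, C1qb was nearest to C1qa and C1qc, at a root mean square difference of 0.13 each in centred log2 levels. C4b differed from Serping1 by 0.25 and from C1qb by 0.47. Among genes other than the 9, C1qb was most like Gm17057 (0.14), the lysosomal protease gene Ctss (0.16), itself a marker in the microglia list, and mt-Co3 (0.16). C4b was most like Ifitm3 (0.24), A2m (0.26) and Serpina3n (0.30), and Serping1 like Fgf2 (0.19), A2m (0.20) and Efemp1 (0.21). C3 was too low to enter this ranking.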

How the data were processed

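RNA was extracted from whole retinas, and libraries were poly(A)-selected and strand-marking, per the labels' protocols. The submitters' processing notes name HISAT2 2.2.1, featureCounts 2.0.6, DESeq2 1.42.0 and the mm10 build. Annotation release and strand setting: not given in the sources used here. The authors deposited FPKM values for the 10 uninjected libraries and raw read counts for the 6 injected ones. No row of the count table lacked a gene identifier. Of its 48440 identifiers, 48092 (99.3%) had a symbol in a reference list of names.

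From the deposited counts, edgeR 4.0.16 (quasi-likelihood, robust, TMM) in R 4.3.3 tested 17466 genes kept by filterByExpr. From the deposited FPKM values, limma 3.58.1 (trend, robust) tested log2(FPKM + 1) over 13786 genes with a mean of at least 1 FPKM, with all uninjected groups in 1 fit. This scale understates changes of low genes. FPKM times length gave whole reads, within 0.02, for 254727 of 254727 values above 0, and edgeR and DESeq2 1.42.0 were run on those reads as alternatives. All tests were two-sided, adjusted by Benjamini-Hochberg over every gene tested, with a threshold of 0.05. The standard error for edgeR is the log2 fold change divided by the root of its F statistic. Alternatives were other size factors, other tests, filters, pseudocounts, library weights, a replicate block and leaving out each library. The procedure was tested on simulated data.

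The members and lists were chosen with earlier results of these data known. Named genes were the 9 members, up to 4 further genes per complement role with the smallest supplementation p, and 3 genes most like C1qb, C4b, C3 and Serping1 in pattern. C5ar1, Tmem119, P2ry12, Ccr2, Csf3r, Cfb, Cfd, C9, Fcnb, Cd55b, Cd59a, Ifit1 and Rnf213 were named after their values were seen. For 1 further gene, which the counts by role include, the values are not reported here. No pair of replicates agreed within counting noise (chi-square per degree of freedom of 3.06 to 42.7). Promoter sequences are from RefSeq.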

Additional observations from a re-analysis of the deposited data

Results flagged for a closer look

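C4b in wildtype retinas at 18 months had 1 library, replicate 4, far below the others. It stood at 3.31 FPKM, against 4.08 to 4.15 FPKM in the other 3, a gap of 0.914 of the group's whole range, which is past Dixon's 95% limit for 4 samples. Chance passes this limit in about 1 in 20 groups, and 9 were looked at. The cause was not tested.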

How the results depend on the processing

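For supplementation, 0 of 9 complement genes and 2 genes in all were called. DESeq2 called 9 and 249, no filter on low counts 2 (C1s1 and C4b) and 85, voom with quality weights 1 and 11, and the replicate block 4 (C1qa, C1qb, C1qc and C4b) and 88. DESeq2's size factors in edgeR left both counts as they were. Leaving out 1 library gave 0 to 4 members and 0 to 105 genes, the upper values without vehicle replicate 3. All 9 fold changes stayed below 0 in all 12 settings. Whether equal replicate numbers pair the injected libraries is not known. Deviations of same-numbered injected libraries correlated at 0.40, -0.20 and 0.42, and so few values cannot decide it. Same-numbered libraries correlated at 0.18, -0.42 and 0.51 for mutant and wildtype at 12 months, and at -0.05, 0.42 and -0.39 for both ages.

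For age and genotype, 0 members were called except with library weights, where Serping1 was called lower in both (age log2 -0.98, genotype log2 -0.83). Those weights gave wildtype 12-month replicate 1 a weight of 5.76, and called 1246 genes for age, 2598 for genotype and 5 for 18-month wildtype over mutant retinas. For age they turned C1qa to -0.21, C1qb to -0.11 and C1qc to -0.32, and C4b to -0.19 for 18-month wildtype over mutant. The replicate block turned C4b to 0.01 for age, and called 0 genes in the 3 uninjected comparisons. A filter at 0.1 FPKM called 1 gene each for age and genotype, and no filter 4, 4 and 1. DESeq2 on recovered reads called 10 genes for age and 10 for 18-month wildtype over mutant, edgeR 1 for age, and a fit of only the groups compared 2 for the last comparison. Without wildtype 12-month replicate 1, edgeR on recovered reads called 2, 2 and 1 genes in the 3 comparisons, and turned C4b to 0.75 and Serping1 to 0.33 for age and to 0.70 and 0.41 for genotype. Leaving out 1 library in limma gave 0 members, and 0 to 1, 0 and 0 to 3 genes. Fold changes then ranged, for age, over -0.15 to 0.29 (C1qa), -0.03 to 0.40 (C1qb), -0.06 to 0.53 (C1qc), -0.45 to 0.56 (C4b) and -0.57 to 0.26 (Serping1). For genotype they ranged over -0.01 to 0.68, -0.02 to 0.60, -0.03 to 0.57, -0.58 to 0.42 and -0.53 to 0.30 in the same order of genes. For 18-month wildtype over mutant they ranged over -0.56 to 0.12, -0.38 to 0.23, -0.33 to 0.20, -0.23 to 0.34 and -0.20 to 0.07. The cause of these changes was not tested. Depth limits C3ar1, C1ra, C1s1 and C3 in uninjected retinas, which rest on 3 to 128 reads.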
